A study of Rattus norvegicus with 4 samples.

Results

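The nuclei described here were 280 glutamate nuclei of the rat ventral tegmental area that held RNA of C1ql1 and none of Th. They were chosen by a gate on the raw counts of unique molecular identifiers (UMIs, each standing for 1 captured RNA molecule). A nucleus entered with at least 2000 UMIs in all, at least 1 of C1ql1, at least 2 of Slc17a6, and 0 of Th, Gad1, Slc32a1, Pdgfra, Sim1 and Foxb1. They were 280 of 21606 barcodes in the series, or of 15296 barcodes with at least 2000 UMIs. Female 1 gave 78 of them, female 2 gave 64, male 1 gave 61 and male 2 gave 77. The tissue came from experimentally naive male and female Sprague-Dawley rats aged 90 to 120 days, and by the labels the groups differ only in sex. It was dissected, frozen and lysed, and the nuclei were profiled by single-nucleus RNA sequencing. Each of the 4 libraries, 2 per sex, pooled tissue of 3 rats, so the library is the replicate and single animals cannot be told apart.

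C1ql1 encodes a secreted protein of the C1q-like family, best known from climbing fibres in the cerebellum, where it binds the adhesion receptor Adgrb3 on the receiving neuron and helps to keep synapses in place. Slc17a6 encodes a transporter (VGLUT2) that loads glutamate into synaptic vesicles, and Th encodes the enzyme that starts dopamine synthesis. The ventral tegmental area holds dopamine neurons beside glutamate and GABA neurons, and some of its neurons release both dopamine and glutamate. C1ql1 is also made by oligodendrocyte precursors, which carry Pdgfra, and Sim1 and Foxb1 mark neurons of the neighbouring mammillary region, and the gate asked for none of the 3.

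The nuclei were set against 3 other sets. The comparison nuclei were 1029 barcodes with at least 2 UMIs of Slc17a6 and 0 of C1ql1, Th, Gad1 and Slc32a1. Of these, 702 also met the depth and the 3 further zeros asked of the C1ql1 nuclei, and they are called matched. The third set, Th and C1ql1 nuclei, held 114 barcodes with at least 1 UMI of Th, 0 of the dopamine transporter Slc6a3 and otherwise the same conditions. Levels are in CPM, the UMIs of a gene per 1000000 UMIs of all genes summed over the nuclei of a set in a library, and are listed in the order female 1, female 2, male 1 and male 2. Means carry the SD over the 4 libraries.

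The libraries held 19714338 to 25824289 UMIs in all. The C1ql1 nuclei carried neuron markers, while Slc17a6 was set by the gate. Their median depth was 8023.5 UMIs, against 8162 in the comparison nuclei, and 13 of them (4.64%) were called doublets, against 4.66%. Of 5 neuron markers 4 were found by name, and their summed level was 5403 to 6587 CPM per library, below the 6407 to 7276 CPM of the comparison nuclei in each library. The 8 oligodendrocyte markers summed to 706 to 847 CPM, against 583 to 1222 CPM. The 7 microglia markers summed to 69.8 CPM in male 2 and to 7.59 to 9.59 CPM in the other libraries, and the part of these glial RNAs in the results was not tested. Among barcodes of all kinds, 36 sequences occurred in more than 1 library, and none was a C1ql1 nucleus.

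C1ql1 itself stood at 404, 361, 297 and 407 CPM, which is what the gate selected. The gate also fixed Slc17a6, which stood at 484, 359, 453 and 382 CPM against 389, 347, 381 and 417 CPM in the comparison nuclei. Many nuclei lay close to the limits. Of the 280, 85 had 1 UMI of C1ql1, 56 had 2 and 139 had 3 or more, while 702 nuclei that met every other condition had 0. With 1 UMI of Slc17a6 a further 158 would have entered, and 99 of those inside had 2. Th kept out 53 nuclei with 1 UMI and 69 with 2 or more, Sim1 kept out 45, Slc32a1 20, Gad1 16, Pdgfra 12 and Foxb1 2. The 0 UMIs of Th were set by the gate, so they put no upper limit on its level in these nuclei. Oligodendrocyte nuclei, which should lack C1ql1, had a UMI of it in 2.17% of cases, at median depths of 2873 to 3212 UMIs. After every nucleus was thinned to 2000 UMIs that share was 1.46%.

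The C1ql1 nuclei were not of 1 kind. All 1423 nuclei of the 3 sets were clustered together. The gating genes, Slc6a3 and the 6 genes called between the sexes in the C1ql1 nuclei were left out. The 1423 nuclei fell into 18 clusters, and the C1ql1 nuclei lay in 16 of them. Cluster 6 held 60 (21.4%), cluster 14 held 39 (13.9%), cluster 4 held 31 (11.1%), cluster 16 held 30 (10.7%) and cluster 7 held 28 (10.0%). None lay in clusters 8 and 15, which held 90 and 39 comparison nuclei. C1ql1 nuclei were 79.6% of cluster 14, 76.9% of cluster 16 and 58.3% of cluster 6. In cluster 7, 65 of the 99 nuclei were Th and C1ql1 nuclei, and 6 were comparison nuclei. Clusters were kept as numbers and not named, and what follows on them is description, since the same genes made the clusters.

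**Figure D1:**
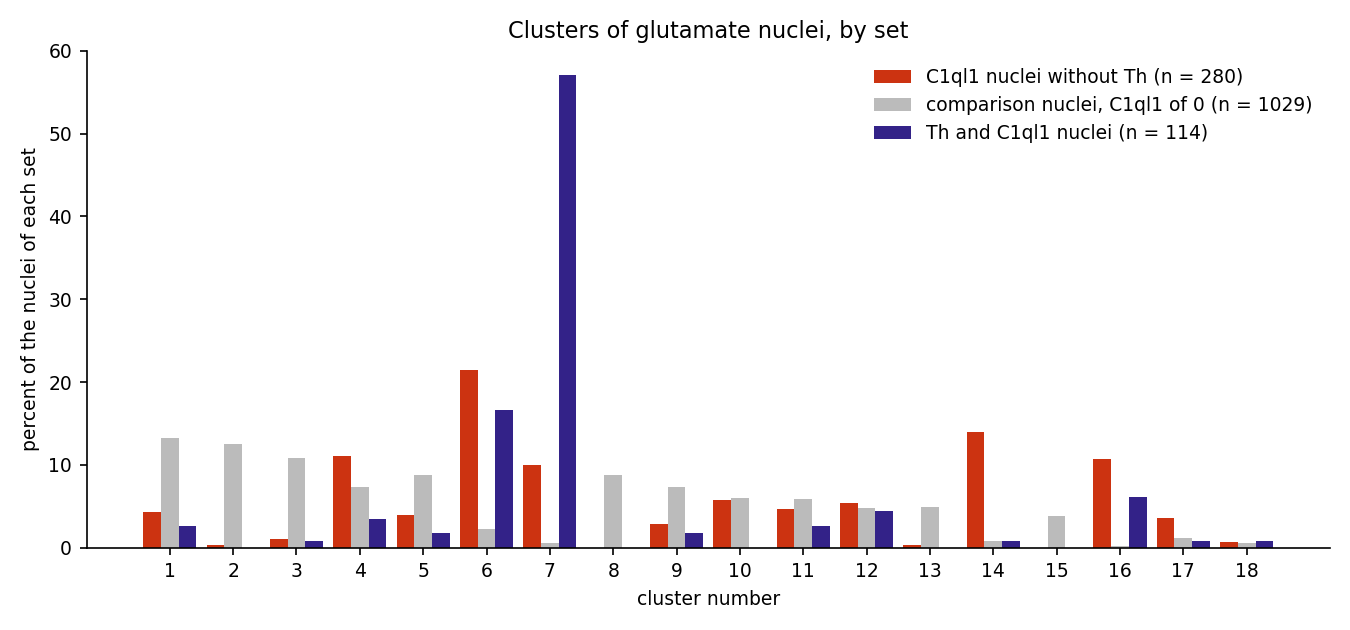
Percent (vertical axis) of the C1ql1 nuclei without Th (red, 280), of the comparison nuclei (grey, 1029) and of the Th and C1ql1 nuclei (blue, 114) that fell in each of 18 clusters (horizontal axis). The red bars are tallest in clusters 6, 14, 4, 16 and 7, and 57.0% of the Th and C1ql1 nuclei lie in cluster 7.

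Each of the larger clusters had its own leading genes. Cluster 6 was led by Abcc9, a potassium channel partner (64.1 against 4.33 CPM in the other clusters), and Mas1, a receptor of the angiotensin system (70.6 against 6.49 CPM). Its C1ql1 nuclei also held the serotonin receptor Htr2c at 2165 CPM, the highest among clusters with 10 or more of them. Cluster 14 was led by the kinase gene Stk32a (711 against 15.5 CPM), the transcription factor Pax8 (202 against 1.13 CPM) and Slc6a5, the neuronal glycine transporter (181 against 0.888 CPM). Lmx1a, a transcription factor of the midbrain floor, was at 482 CPM in the C1ql1 nuclei of cluster 6, 409.9 CPM in cluster 7 and 0 in cluster 14. Cluster 4 was led by the transcription factor Sox6 (339 against 19.7 CPM), cluster 16 by the engulfment adaptor Gulp1 (1021 against 52.5 CPM) and cluster 7 by the zinc finger gene Bnc2 (312 against 20.001 CPM). Cluster 16 had the highest C1ql1 among these, 692 CPM in its C1ql1 nuclei, against 199.7 CPM in cluster 4.

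Smaller groups stood apart as well. All 40 UMIs of Sox14, a transcription factor of some thalamic and midbrain interneurons, came from 9 of the 10 C1ql1 nuclei of cluster 17. Cluster 12, with 15 C1ql1 nuclei, was led by myelin genes such as Mog (751 against 6.19 CPM), and 57.1% of its nuclei were doublet calls. Cluster 18, with 2 C1ql1 nuclei, both of male 2, was led by complement genes of microglia, and 88.9% of its nuclei were doublet calls. All 5 larger clusters drew C1ql1 nuclei from every library. Cluster 6 had 10, 20, 14 and 16, cluster 14 had 15, 9, 5 and 10, cluster 16 had 14, 6, 6 and 4, and cluster 4 had 10, 2, 10 and 9. Female 2 thus had the most of cluster 6 and the fewest of cluster 4.

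**Figure D2:**
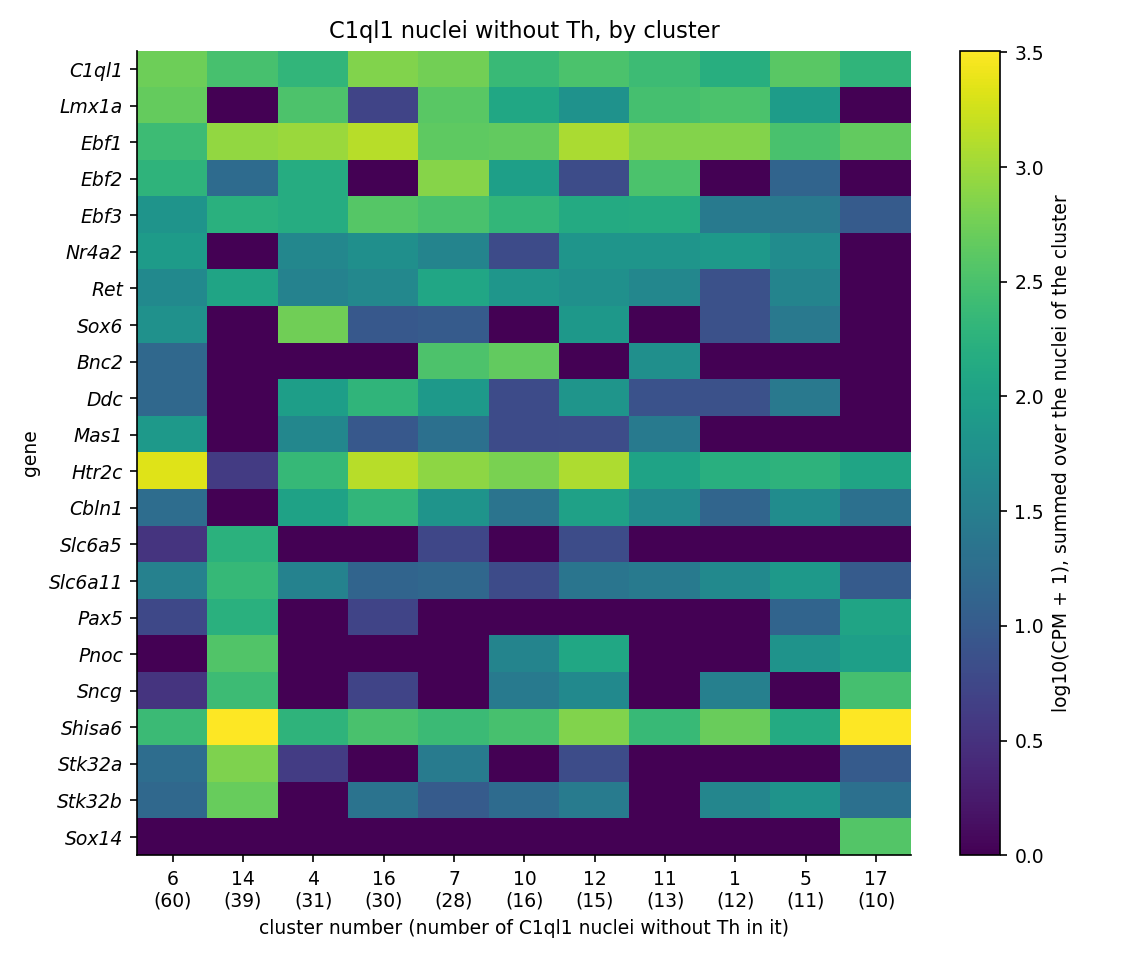
Levels of 22 genes (rows) in the C1ql1 nuclei without Th of each cluster that held at least 10 of them (columns, with the number of nuclei), as log10(CPM + 1) of the UMIs summed over those nuclei. Read along a row, Lmx1a is at 0 in clusters 14 and 17, Slc6a5, Pax5, Pnoc, Stk32a and Stk32b are brightest in cluster 14, and Sox14 has UMIs only in cluster 17.

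Against the comparison nuclei, the C1ql1 nuclei had more RNA of a glycine transporter, of a glutamate receptor partner and of most tested transcription factors of the dopamine lineage. They had less RNA of Hmcn1, Myo5b and Penk, of 5 of 10 tested GABA-A receptor subunits and of 4 of 6 tested metabotropic glutamate receptors. Of 9571 genes tested with edgeR, 454 (4.74%) passed an adjusted p of 0.05, 223 higher (2.33%) and 231 lower (2.41%) in the C1ql1 nuclei. Against the matched comparison nuclei 323 of 9212 genes passed (3.51%), 166 higher and 157 lower. Without the library block the counts were 272 and 149, with DESeq2 they were 231 and 127, and the first was 282 without male 1.

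The 8 oligodendrocyte precursor markers found by name summed to 281 to 408 CPM, against 329 to 424 CPM in the comparison nuclei, with Cspg4 and Gpr17 at 0 in all 4 libraries of the C1ql1 nuclei. Of these, 3 were tested. Vcan, a matrix proteoglycan, was higher, at 68.7, 58.8, 98.9 and 50.5 CPM against 41.3, 34.2, 32.1 and 29.8 CPM, without overlap (log2 difference 1.02 ± 0.18 (SE), edgeR adjusted p = 0.001), and cluster 4 held 44.3% of its UMIs. Ptprz1, a phosphatase gene, fell by 0.48 ± 0.12 (log2, SE; edgeR adjusted p = 0.0216), a call lost without male 1 (-0.35) or male 2 (-0.40), without the library block and with DESeq2. Bcas1, a gene of oligodendrocytes, did not pass (0.81 ± 0.24, edgeR adjusted p = 0.0591). Vcan (1.30 ± 0.21) and Bcas1 (0.93 ± 0.20) were both higher against the matched nuclei (edgeR adjusted p = 0.000255 and 0.00564). Cluster 12, rich in doublet calls, held 48.7% of the Bcas1 UMIs of the C1ql1 nuclei, and the Bcas1 difference from the matched nuclei was -0.38 with doublet calls removed. The Bcas1 call was also lost with DESeq2, without the library block, and without female 2 (0.70) or male 1 (0.85). The part of precursor RNA in the other results was not tested.

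The 10 largest rises and the 10 largest falls come next, among genes that passed in both comparisons, went the same way in 4 of 4 libraries and reached 20 CPM on average in the higher set.

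The largest rise was in Slc6a5, which returns glycine to the terminals of glycine neurons. It stood at 33.6, 28.5, 19.5 and 16.3 CPM in the C1ql1 nuclei and at 0.825, 8.35, 0.331 and 1.55 CPM in the comparison nuclei. All 4 libraries of the first set lay above all 4 of the second (log2 difference 3.53 ± 0.47 (SE), edgeR adjusted p = 8.87e-05). Without female 2, whose comparison nuclei had the most Slc6a5, the difference was 4.57. Few nuclei carried it: 30 of 280 held a UMI of Slc6a5, 26 of them among the 39 of cluster 14, where 93.3% of the UMIs lay. The other C1ql1 nuclei held 1.84 CPM. The pooled comparison nuclei also held 1.84 CPM, but they include the 9 comparison nuclei of cluster 14, at 177 CPM, so the sets are not alike.

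Pax5, a transcription factor of the border between midbrain and hindbrain, stood at 40.0, 38.0, 21.0 and 17.8 CPM against 5.78, 21.7, 2.98 and 1.55 CPM (log2 difference 2.17 ± 0.36 (SE), edgeR adjusted p = 0.00074). Without female 2 the difference was 2.91, and the ranges of the sets overlapped only through the comparison nuclei of that library. Pnoc, the precursor of the opioid-like peptide nociceptin, stood at 126, 77.8, 24.0 and 37.1 CPM against 7.84, 29.2, 17.6 and 10.0 CPM. Both female libraries were above both male ones in the C1ql1 nuclei, and the sets overlapped, with female 2 comparison nuclei above male 1 C1ql1 nuclei. Its log2 difference was 2.01 ± 0.35 (SE, edgeR adjusted p = 0.00126), 1.25 without female 1, and it did not pass with DESeq2. Cluster 14 held 74.6% of the Pax5 UMIs and 71.4% of the Pnoc UMIs of the C1ql1 nuclei.

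Shisa6 encodes a partner protein of AMPA-type glutamate receptors that holds them at the synapse. Its level was 692, 958, 682 and 846 CPM in the C1ql1 nuclei and 115, 533, 105 and 162 CPM in the comparison nuclei, without overlap (log2 difference 2.11 ± 0.20 (SE), edgeR adjusted p = 2.59e-06). Female 2 had the highest value in both sets. At an equal depth of 2000 UMIs, 40.6% of the C1ql1 nuclei held a UMI of Shisa6, against 17.2% of the comparison nuclei and 1.09% of oligodendrocyte nuclei. Cluster 14 held 50.7% of its UMIs, and the other C1ql1 nuclei stood at 445 CPM. The pooled comparison nuclei, those of cluster 14 included, stood at 179 CPM.

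Sncg, which encodes gamma-synuclein, a protein of axons, stood at 71.9, 55.04, 54.0 and 38.6 CPM against 13.2, 25.0, 8.94 and 8.11 CPM, again without overlap (log2 difference 2.11 ± 0.24 (SE), edgeR adjusted p = 1.29e-05). The kinase genes Stk32a and Stk32b were higher by 1.98 ± 0.25 and 1.86 ± 0.17 on the log2 scale (SE, edgeR adjusted p = 6.3e-05 and 2.11e-06), and cluster 14 held 93.2% and 82.0% of their UMIs. Outside that cluster the C1ql1 nuclei had 7.36 CPM of Stk32a and 15.6 CPM of Stk32b. The pooled comparison nuclei had 23.4 and 19.9 CPM, with their nuclei of cluster 14, at 917 and 370 CPM, included.

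Mas1 differed from these in its source. It stood at 24.0, 24.7, 24.0 and 22.3 CPM, nearly level over the libraries, against 4.95, 10.9, 3.97 and 6.57 CPM (log2 difference 1.94 ± 0.30 (SE), edgeR adjusted p = 0.000395). Cluster 6 held 54.2% of its UMIs and cluster 14 none. The last of the 10, AABR07011013.1 and AABR07054126.1, have no gene symbol in the files. They were higher by 1.76 ± 0.24 and 1.81 ± 0.30 (log2, SE; edgeR adjusted p = 0.000108 and 0.000809). Across the 10 genes, 7 had more of their UMIs in cluster 14 than in any other cluster.

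**Figure D3:**
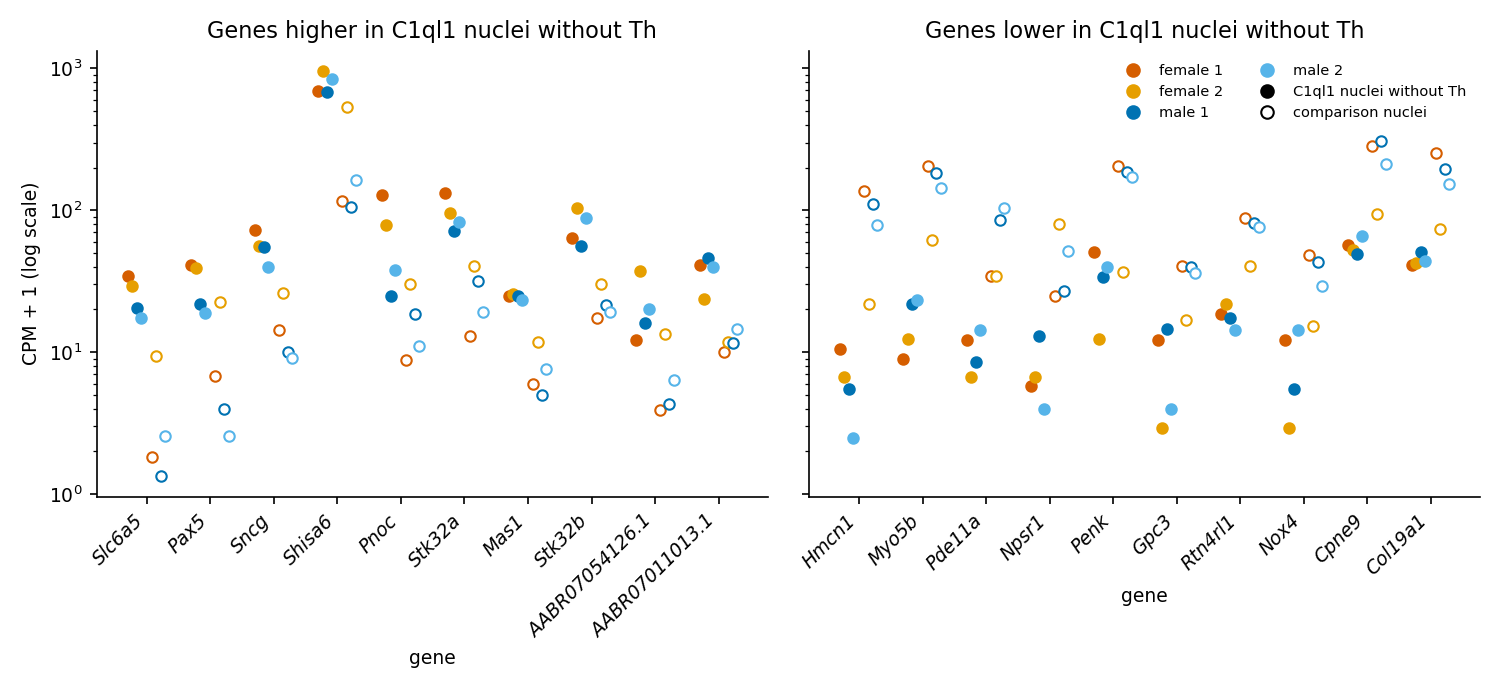
Level of the 10 genes with the largest rises (left) and the 10 with the largest falls (right) in the C1ql1 nuclei without Th (filled) and the comparison nuclei (open), 1 point per library, as CPM + 1 on a log scale. Filled points lie above open ones on the left and below them on the right, except for Pax5, Pnoc and AABR07054126.1 on the left and Penk on the right, where the sets overlap through female 2.

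Among the genes that were lower, the largest difference was in Hmcn1, which encodes hemicentin-1, a matrix protein. It stood at 9.59, 5.69, 4.50 and 1.48 CPM in the C1ql1 nuclei, from 13 UMIs in 11 nuclei, and at 136, 20.9, 109 and 77.3 CPM in the comparison nuclei (log2 difference -4.07 ± 0.28 (SE), edgeR adjusted p = 7.45e-08). The sets did not overlap, and female 2 had the lowest comparison value. Against the matched comparison nuclei (68.5, 21.8, 65.7 and 55.6 CPM) the difference was -3.35 ± 0.31. Myo5b, a motor that carries vesicles, fell from 203, 60.9, 181 and 143 CPM in the comparison nuclei to 7.99, 11.4, 21.0 and 22.3 CPM (log2 difference -3.22 ± 0.21 (SE), edgeR adjusted p = 7.29e-08), likewise without overlap.

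Among the next largest falls were an enzyme, a receptor and a peptide precursor. Pde11a, which breaks down cyclic nucleotides, stood at 11.2, 5.69, 7.495 and 13.4 CPM against 33.4, 33.4, 85.1 and 104 CPM (log2 difference -2.76 ± 0.25 (SE), edgeR adjusted p = 1.53e-06). The receptor for neuropeptide S, Npsr1, stood at 4.80, 5.69, 12.0 and 2.97 CPM against 23.9, 79.3, 26.2 and 50.6 CPM (log2 difference -2.71 ± 0.35 (SE), edgeR adjusted p = 6.74e-05), and the difference was -3.47 without male 1. Penk, the precursor of the enkephalin opioid peptides, stood at 49.6, 11.4, 33.0 and 38.6 CPM against 203, 35.9, 186 and 170.0 CPM. The ranges overlapped, since the female 2 comparison nuclei lay below the C1ql1 nuclei of female 1 and male 2, while each library went the same way (log2 difference -2.18 ± 0.14 (SE), edgeR adjusted p = 7.29e-08). The remaining 5, Gpc3, Rtn4rl1, Nox4, Cpne9 and Col19a1, fell by 1.94 to 2.12 on the log2 scale (edgeR adjusted p = 2.11e-06 for Col19a1 and 0.000213 for Gpc3), without overlap between the sets.

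Clusters with few or no C1ql1 nuclei were rich in 5 of these RNAs. Cluster 8, with 90 comparison nuclei and no C1ql1 nucleus, was led by Hmcn1 (499.9 against 36.8 CPM in the other clusters) and also had Myo5b (602 against 81.3 CPM) among its 10 leading genes. Cluster 15, with 39 comparison nuclei and no C1ql1 nucleus, had Gpc3 (424 against 16.8 CPM), Penk (837 against 109 CPM) and Myo5b (658 against 105 CPM) among them. Cluster 13, with 51 comparison nuclei and 1 C1ql1 nucleus, was led by Pde11a (743 against 26.5 CPM). Female 2 gave 5 of the 90 nuclei of cluster 8 and none of the nuclei of clusters 13 and 15, and the part of this in its values was not tested.

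Transcription factors of the dopamine lineage were mostly higher in the C1ql1 nuclei than in other glutamate nuclei. Of 15 listed, 7 passed edgeR's filter on low counts, and 6 of the 7 were higher and none lower, where 2.33% of all genes tested were higher. Their median log2 difference was 1.17, against 0.0042 over all genes tested. Against the matched comparison nuclei, 6 of 8 were higher, where 1.80% of all genes tested were, with a median of 0.73 against 0.0031. With each library left out in turn, 5 of the 6 calls held every time against the comparison nuclei and 3 of the 6 against the matched ones, and with DESeq2 5 and 1 held.

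Nr4a2, needed to make and keep dopamine neurons, stood at 40.0, 34.2, 80.9 and 19.3 CPM against 11.1, 11.7, 17.9 and 13.5 CPM, without overlap (log2 difference 1.64 ± 0.25 (SE), edgeR adjusted p = 0.000373). Ebf1, an early factor of neuron differentiation, stood at 897, 503, 637 and 768 CPM against 310.0, 429, 216 and 316 CPM, also without overlap (log2 difference 1.17 ± 0.15 (SE), edgeR adjusted p = 5.88e-05). Lmx1a stood at 142, 269, 222 and 257 CPM against 80.1, 117, 97.7 and 155 CPM, where female 1 lay below the male 2 comparison nuclei and each library went the same way (log2 difference 0.98 ± 0.11 (SE), edgeR adjusted p = 1.26e-05). Against the matched nuclei Lmx1a differed by 0.45 ± 0.11 (SE, edgeR adjusted p = 0.0188). That call was lost without female 2 (0.33) or male 1 (0.41), and with nuclei matched for depth.

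Sox6, which separates dopamine neuron groups in development, stood at 65.6, 75.9, 105 and 111 CPM against 9.91, 49.3, 30.1 and 54.1 CPM, without overlap (log2 difference 1.43 ± 0.21 (SE), edgeR adjusted p = 0.000296), and 15 of the 31 C1ql1 nuclei with a UMI of it lay in cluster 4. That cluster held 78.3% of the Sox6 UMIs of the C1ql1 nuclei, and the C1ql1 nuclei outside it stood at 22.5 CPM. The pooled comparison nuclei stood at 34.0 CPM. That value includes the 75 comparison nuclei of cluster 4, at 249 CPM, so the sets are not alike. Its call was lost without the library block and with at least 4 UMIs of Slc17a6 asked. Ebf3 was higher by 0.80 ± 0.13 (log2, SE; edgeR adjusted p = 0.000623). Bnc2 rested on single libraries: it stood at 27.2, 81.6, 24.0 and 148 CPM against 30.5, 20.04, 7.29 and 3.48 CPM, and in female 1 it was lower in the C1ql1 nuclei. Its difference was 2.19 ± 0.49 (SE, edgeR adjusted p = 0.00954), 1.11 without male 2 and 2.29 without male 1, neither past the threshold, and 3.15 without female 1. The call was lost with DESeq2 too, and 9 nuclei of cluster 10 held 50.0% of the Bnc2 UMIs of the C1ql1 nuclei. Of 13 genes listed under dopamine synthesis and transport 5 were tested. Only Ret, the receptor for GDNF family growth factors, passed, where 2.33% of all genes tested were higher and 2.41% lower. Ret stood at 60.8, 68.3, 36.0 and 57.9 CPM against 10.7, 22.5, 17.9 and 16.6 CPM (log2 difference 1.71 ± 0.22 (SE), edgeR adjusted p = 6.49e-05). Ddc, the enzyme after Th, differed by 0.75 ± 0.24 and did not pass (edgeR adjusted p = 0.0907).

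Of 49 listed regional transcription factors 13 were tested, with 5 higher and 3 lower (median 0.12), where 2.33% of all genes tested were higher and 2.41% lower. Nfib, a factor of neuron and glia maturation, stood at 222, 232, 205 and 178 CPM against 97.4, 141, 107 and 96.6 CPM (log2 difference 0.93 ± 0.10 (SE), edgeR adjusted p = 1.26e-05), without overlap. Zfhx4, a homeobox factor, stood at 221, 325, 396 and 367 CPM against 701, 432, 723 and 656 CPM, without overlap (log2 difference -0.95 ± 0.13 (SE), edgeR adjusted p = 0.000175). Rorb, a nuclear receptor, fell by 1.52 ± 0.21 on the log2 scale (SE, edgeR adjusted p = 0.000124). The Rorb call was lost with DESeq2. The higher ones beside Nfib were Pax5, Sox14, Ebf2 and Foxp2. Against the matched nuclei, which hold no Sim1 or Foxb1, Pax5, Nfib, Rorb and Zfhx4 passed, while Ebf2 (0.27 ± 0.11) and Sox14 (1.25 ± 0.38) did not. Against the comparison nuclei the Sox14 call was lost without female 1 (1.62), male 1 (1.76) or male 2 (1.40), and without the library block. Its difference was 2.49 without female 2. The Foxp2 call in that comparison (0.43 ± 0.11) was lost without female 1 (0.40) or male 2 (0.25).

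Other ligands of the family of C1ql1 differed in part. Of 7 listed, 4 were tested, and Cbln1, a cerebellin that joins synapses in the cerebellum through delta glutamate receptors, stood at 84.7, 30.4, 58.5 and 56.4 CPM against 15.7, 7.51, 28.8 and 29.8 CPM, a rise without overlap (log2 difference 1.47 ± 0.23 (SE), edgeR adjusted p = 0.000468). C1ql2 (0.44 ± 0.31) and Cbln2 (-0.32 ± 0.19) did not pass. Over all genes tested 2.33% were higher and 2.41% lower. Of 9 tested receptors of these ligands, only Adgrb3, the receptor of C1ql1, passed. Its level was 2403, 2389, 2625 and 2664 CPM in the C1ql1 nuclei and 3044, 3198, 3306 and 3336 CPM in the comparison nuclei, a small difference without overlap (log2 difference -0.36 ± 0.07 (SE), edgeR adjusted p = 0.00261). Against the matched nuclei 2 of 9 receptors were lower, Adgrb3 and Nrxn3, where 1.70% of all genes tested were. With each library left out in turn, 1 of these 2 calls held.

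Called receptors for slow glutamate signals were all lower. Of 8 metabotropic glutamate receptors 6 were tested, 4 were lower and none higher, with a median log2 difference of -0.71, where 2.41% of all genes tested were lower. Against the matched nuclei 5 of 6 were lower, where 1.70% of all genes were. Grm7, which dampens release at terminals, stood at 859, 639.6, 905 and 815 CPM against 2049.6, 1025, 1547 and 1739 CPM (log2 difference -0.96 ± 0.09 (SE), edgeR adjusted p = 3.3e-06), without overlap. Grm5 fell by 0.46 ± 0.08 and Grm2 by 1.81 ± 0.27 (log2, SE; edgeR adjusted p = 0.0017 and 0.000294), Grm5 in 4 of 4 libraries and Grm2 in 3, all but female 2. Grm8 differed by 0.07 ± 0.14 and did not pass.

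Of 15 GABA-A receptor subunits 10 were tested, 5 were lower and none higher (median -0.45), where 2.41% of all genes tested were lower, with a median of 0.0042. Against the matched nuclei 7 of 10 were lower (median -0.47), where 1.70% of all genes were. With each library left out in turn 4 of the 5 and 4 of the 7 calls held. Gabra2 stood at 104, 110.1, 136 and 126 CPM against 373, 181, 377 and 278 CPM (log2 difference -1.33 ± 0.13 (SE), edgeR adjusted p = 4.9e-06). Gabrg1 stood at 19.2, 30.4, 28.5 and 38.6 CPM against 90.0, 66.8, 82.5 and 81.5 CPM (log2 difference -1.47 ± 0.18 (SE), edgeR adjusted p = 3.1e-05). Gabra5 fell by 1.29 ± 0.14, Gabrb1 by 0.62 ± 0.09 and Gabra4 by 0.79 ± 0.16 (log2, SE; edgeR adjusted p = 1.26e-05, 0.000174 and 0.00423). Gabra2 and Gabrg1 did not overlap between the sets. Gabra4 was lower in 3 of 4 libraries, all but female 2, and its call was lost without female 1 (-0.66), without male 1 (-0.62), without the library block and with DESeq2. Among 15 tested AMPA, NMDA and kainate receptor subunits the direction was the other one: Gria3 (0.73 ± 0.11) and Gria4 (0.46 ± 0.07) were higher and none was lower (edgeR adjusted p = 0.000226 and 0.000581). Over all genes tested 2.33% were higher.

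All 6 listed genes of GABA and glycine synthesis and transport were tested. Beside Slc6a5, the GABA transporter gene Slc6a11 was higher, at 40.0, 43.6, 61.5 and 57.9 CPM against 20.2, 29.2, 22.2 and 21.6 CPM, without overlap (log2 difference 1.16 ± 0.19 (SE), edgeR adjusted p = 0.00074). Gad2, an enzyme that makes GABA, fell by 1.36 ± 0.32 from a low level (16.1, 25.0, 23.8 and 18.5 CPM in the comparison nuclei, edgeR adjusted p = 0.0132). That call was lost without male 2 (-1.19) and with DESeq2. Cluster 14 held 56.2% of the Slc6a11 UMIs. The markers of GABA neurons Gata3 and Tal1 were at 0 in 3 and in 4 of the 4 libraries of the C1ql1 nuclei. Of 11 further genes of glutamate synthesis and transport 7 were tested and none passed.

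**Figure D4:**
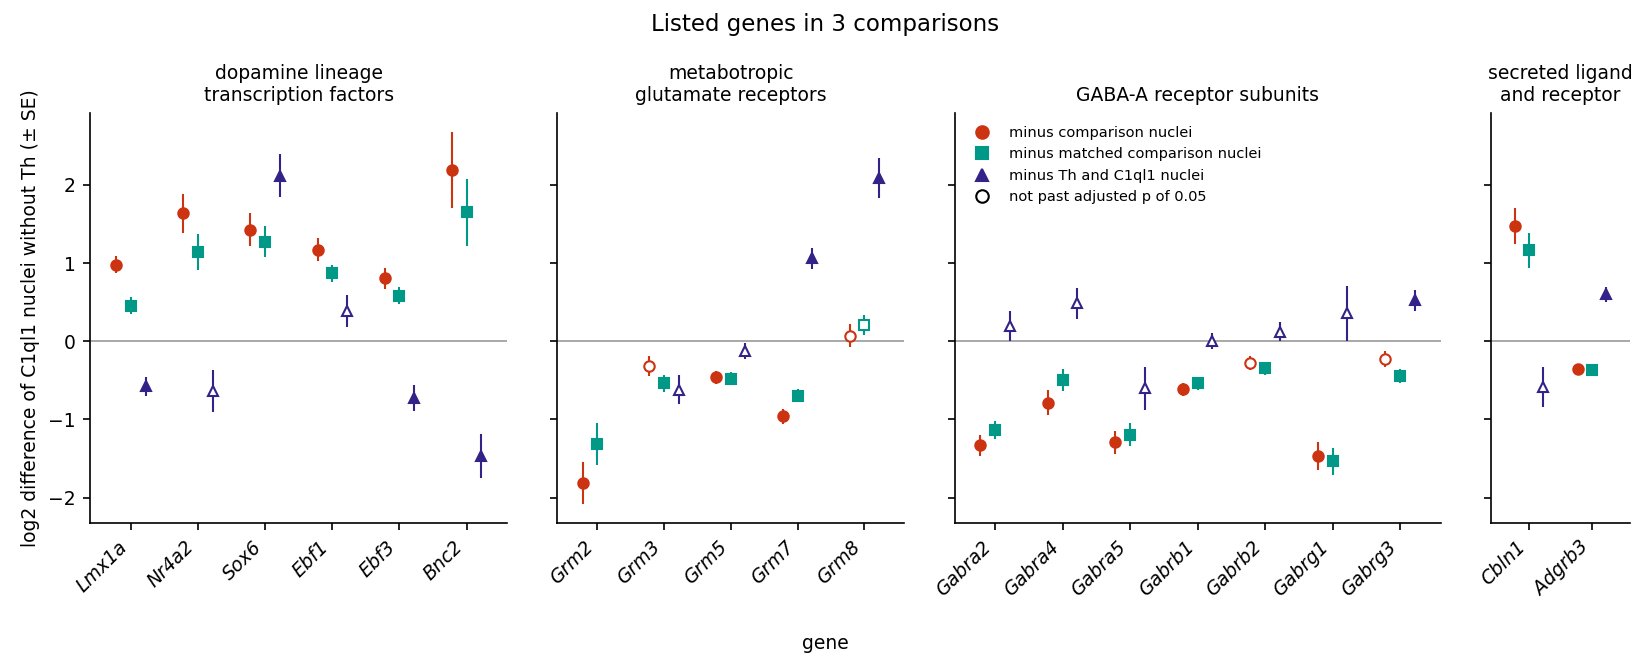
Log2 difference (points, with SE) of the C1ql1 nuclei without Th from the comparison nuclei (red circles), the matched comparison nuclei (green squares) and the Th and C1ql1 nuclei (blue triangles) for 20 listed genes. Filled symbols passed an edgeR adjusted p of 0.05, and all 3 comparisons share the sums of the C1ql1 nuclei. All 6 transcription factors lie above 0 for red and green, and for blue only Sox6 and Ebf1 do.

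Among 32 neuropeptides 11 were tested, and over all genes tested 2.33% were higher and 2.41% lower. Pnoc was higher, and Penk and Cartpt were lower, the last by 1.64 ± 0.28 on the log2 scale (SE, edgeR adjusted p = 0.000861), in 3 of 4 libraries, all but female 2, a call lost with DESeq2. Tac1, the precursor of substance P, stood at 239.8, 454, 354 and 258 CPM and did not pass (0.49 ± 0.14, edgeR adjusted p = 0.0569). Of 33 receptors for neuropeptides and feeding hormones 10 were tested. Npsr1 was lower and Trhr, the receptor for thyrotropin-releasing hormone, was higher by 1.12 ± 0.25 (log2, SE; edgeR adjusted p = 0.0107). Without female 1 or male 1 the Trhr difference was 0.84 and 0.84, and the call was lost each time, as it was with DESeq2 and with at least 4 UMIs of Slc17a6 asked. None of 3 tested opioid receptors passed.

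Of 12 tested receptors for dopamine, serotonin, acetylcholine, noradrenaline and cannabinoids, Htr2c was higher and Chrna7 and Drd3 were lower. Over all genes tested 2.33% were higher and 2.41% lower. Htr2c stood at 983, 898, 753 and 540.5 CPM against 465, 405, 488 and 468 CPM, without overlap (log2 difference 0.76 ± 0.12 (SE), edgeR adjusted p = 0.00043), and cluster 6 held 46.2% of its UMIs. Its call was lost with at least 4 UMIs of Slc17a6 asked. Chrna7, the subunit of a fast nicotinic receptor, stood at 76.7, 55.04, 73.5 and 56.4 CPM against 99.1, 91.8, 129 and 121 CPM, without overlap (log2 difference -0.76 ± 0.13 (SE), edgeR adjusted p = 0.00117). Drd3, the D3 dopamine receptor, fell by 2.30 ± 0.42 on the log2 scale (SE, edgeR adjusted p = 0.00177). The C1ql1 nuclei held 10 UMIs of Drd3, in 9 nuclei. Against the matched nuclei Drd3 was not called, and Chrna7 alone of these receptors was called lower.

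Calcium-binding proteins and channels gave single genes. Calb2, which encodes calretinin, stood at 134, 137, 133 and 111 CPM against 67.7, 52.6, 69.2 and 63.4 CPM (log2 difference 1.00 ± 0.12 (SE), edgeR adjusted p = 2.16e-05). Necab1 stood at 149, 203, 123 and 187 CPM against 73.1, 89.3, 69.2 and 66.8 CPM (log2 difference 1.13 ± 0.12 (SE), edgeR adjusted p = 6.68e-06). Both rose without overlap, while Calb1 fell by 0.85 ± 0.20 (log2, SE; edgeR adjusted p = 0.0128), lower in all libraries but female 2, a call lost with DESeq2, without the library block, and without female 1 (-0.68), male 1 (-0.83) or male 2 (-0.85). Of 16 HCN and calcium channel genes 2 were higher, among them Cacna2d3 (763, 808, 760.0 and 726 CPM against 553, 407, 510.4 and 413 CPM, without overlap; log2 difference 0.70 ± 0.09 (SE), edgeR adjusted p = 8.3e-05). Of 25 tested potassium channel genes 3 were higher and 2 lower, and 2 of the 5 calls held with each library left out. For both channel lists, the share over all genes tested was 2.33% higher and 2.41% lower. Of those, Kcnc2, a channel of fast-firing neurons, differed by 0.69 ± 0.11 (log2, SE; edgeR adjusted p = 0.000369).

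Genes of axon guidance went both ways. Of 34 tested 8 were higher and 8 lower, where 2.33% and 2.41% of all genes tested were, with a median of 0.11, and 8 of the 16 calls held with each library left out. Unc5c, a receptor for netrin, stood at 79.9, 53.1, 98.9 and 80.2 CPM against 185, 152, 207 and 162 CPM, without overlap (log2 difference -1.17 ± 0.12 (SE), edgeR adjusted p = 3.97e-06), and its relative Unc5b fell by 1.94 ± 0.30 (log2, SE; edgeR adjusted p = 0.000415). Of 28 tested genes of vesicle release 4 were higher and 1 lower. Syt17 was higher by 1.10 ± 0.18 and Syt4 by 0.54 ± 0.09 (edgeR adjusted p = 0.00074 and 0.00117), and the main calcium sensor Syt1 fell by 0.53 ± 0.08 (edgeR adjusted p = 0.000213). Against the matched nuclei 9 of 33 guidance genes and 4 of 28 release genes passed, where 3.51% of all genes tested did.

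The nearest set was the Th and C1ql1 nuclei, which share C1ql1 and Slc17a6 and also hold Th. The C1ql1 nuclei without Th had less RNA of the dopamine pathway enzyme Ddc, of 4 of 8 tested transcription factors of the dopamine lineage, of 4 of 8 tested neuropeptides and of the guidance cues Ntn1 and Slit2. They had more RNA of Stk32a, Stk32b, Sncg and Fign, of the metabotropic glutamate receptors Grm7 and Grm8 and of Adgrb3. With edgeR, 215 of 7155 genes passed (3.00%), 121 higher (1.69%) and 94 lower (1.31%). With DESeq2 81 passed, with nuclei matched for depth 138, and without female 2 the count was 135. This comparison shares the sums of the C1ql1 nuclei with the others, so the values are given side by side and not set against each other.

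Ddc, which turns the product of Th into dopamine, stood at 35.2, 43.6, 57.0 and 56.4 CPM in the C1ql1 nuclei without Th and at 245, 201, 143 and 197 CPM in the Th and C1ql1 nuclei. The sets did not overlap (log2 difference -1.99 ± 0.20 (SE), edgeR adjusted p = 1.04e-06). Among the C1ql1 nuclei kept out by Th, those with 1 UMI of it held 119 CPM of Ddc and those with 2 or more held 273 CPM. Foxa2, a factor of the midbrain floor, stood at 9.59, 13.3, 6.00 and 14.8 CPM against 51.9, 55.4, 27.2 and 25.6 CPM, without overlap (log2 difference -1.80 ± 0.37 (SE), edgeR adjusted p = 0.00493). Its call was lost without female 1 (-1.57) or female 2 (-1.73) and with DESeq2. Smoc1, a secreted matrix protein, fell by 2.43 ± 0.33 and the retinol enzyme Dhrs3 by 2.02 ± 0.39 (log2, SE; edgeR adjusted p = 5.56e-05 and 0.00243), the latter not past the threshold without male 1 (-1.56) or male 2 (-1.95).

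Of 8 tested transcription factors of the dopamine lineage 4 were lower than in the Th and C1ql1 nuclei and 1 was higher. Over all genes tested 1.31% were lower and 1.69% higher. The median of the 8 was -0.68, against -0.0057 over all genes tested, and 2 of the 5 calls held with each library left out. Lmx1a stood at 211, 393, 337 and 406 CPM in the Th and C1ql1 nuclei and was lower by 0.58 ± 0.12 in the nuclei without Th (log2, SE; edgeR adjusted p = 0.005), so its level lay between those of the comparison nuclei and the Th and C1ql1 nuclei in each library. That call was lost without male 2 (-0.56), without the library block and with DESeq2. Bnc2 stood at 207, 176, 156 and 186 CPM in the Th and C1ql1 nuclei, above all libraries of the nuclei without Th (log2 difference -1.47 ± 0.28 (SE), edgeR adjusted p = 0.00237), and the difference was -2.13 without male 2 and did not pass with DESeq2. Sox6 went the other way, at 13.8, 25.2, 13.6 and 32.9 CPM in the Th and C1ql1 nuclei, below all libraries of the nuclei without Th (log2 difference 2.12 ± 0.28 (SE), edgeR adjusted p = 3.08e-05). Nr4a2 (-0.64 ± 0.27) and Ret (-0.81 ± 0.23) did not pass (edgeR adjusted p = 0.345 and 0.0575).

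Of 8 tested neuropeptides 4 were lower and none higher, where 1.31% of all genes tested were lower, and 2 of the 4 calls held with each library left out. Vgf, a precursor released with other peptides, stood at 43.2, 47.4, 68.96 and 34.1 CPM against 235, 151, 173 and 84.1 CPM, without overlap (log2 difference -1.69 ± 0.20 (SE), edgeR adjusted p = 1.04e-05). Scg2, a granin of dense-core vesicles, fell by 0.71 ± 0.11 (log2, SE; edgeR adjusted p = 0.000195), and Adcyap1 and Tac1 fell by 0.82 and 0.85 with calls that were lost without female 2 (-0.77 and -0.52) and without the library block. Adcyap1 was also lost with DESeq2 and without female 1 (-0.71) and male 2 (-0.69). Of 30 tested guidance genes 7 were higher and 7 lower, where 1.69% and 1.31% of all genes tested were, with a median of -0.02, and 8 of the 14 calls held with each library left out. Ntn1, a netrin, stood at 33.6, 32.3, 64.5 and 74.2 CPM against 190.1, 201, 133 and 216 CPM (log2 difference -1.80 ± 0.21 (SE), edgeR adjusted p = 1.04e-05), and Slit2 fell by 0.82 ± 0.11 (log2, SE; edgeR adjusted p = 2.69e-05). The receptor Nrp1 stood at 128, 139, 219 and 149.96 CPM against 17.3, 10.1, 44.2 and 40.2 CPM, a rise without overlap (log2 difference 2.48 ± 0.23 (SE), edgeR adjusted p = 5e-07).

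Grm8 stood at 806, 1249, 829 and 1589 CPM against 560.0, 181, 170.0 and 168 CPM, without overlap (log2 difference 2.09 ± 0.26 (SE), edgeR adjusted p = 1.49e-05). Female 1 had the highest Th and C1ql1 value, and without it the difference was 2.80. Grm7 was higher by 1.06 ± 0.13 and Adgrb3 by 0.60 ± 0.09 (log2, SE; edgeR adjusted p = 1.95e-05 and 0.000277). Stk32b, Sncg, Stk32a and Fign were higher by 2.71, 2.66, 2.54 and 2.33 on the log2 scale (edgeR adjusted p = 0.000107, 0.000336, 3.81e-05 and 4.14e-05). Cluster 14, which held 39 nuclei without Th and 1 with it, held more UMIs of each of these 4 genes in the nuclei without Th than any other cluster. Slc6a5, Pax5 and Pnoc had too few UMIs to be tested in this comparison. The Th and C1ql1 nuclei held fewer UMIs in all, 1055675 against 2492994, and the 7 microglia markers reached 106 CPM in their female 2 sum, a value whose part in the results was not tested.

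The share of C1ql1 nuclei did not differ between the sexes beyond the spread of the libraries. It was 2.24%, 1.60%, 1.96% and 1.63% of barcodes with at least 2000 UMIs, with 95% Wilson intervals from 1.80% to 2.78% in female 1 and from 1.26% to 2.04% in female 2. Females averaged 1.92% ± 0.448 and males 1.80% ± 0.234 (SD, n = 2 each; exact permutation p = 1, two-sided). Of Slc17a6 nuclei without Th, Gad1 and Slc32a1, they made up 22.0%, 31.5%, 16.8% and 17.6%. Both female libraries lay above both male ones, 26.8% ± 6.71 against 17.2% ± 0.577 (SD, n = 2), and the exact permutation p of 0.333 (two-sided) is the smallest that 2 against 2 libraries can give. Female 2 had 132 comparison nuclei, against 264 to 341 in the other libraries. After thinning to 2000 UMIs the shares were 24.7%, 26.7%, 16.8% and 10.3%. Intervals cover counting error only.

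**Figure D5:**
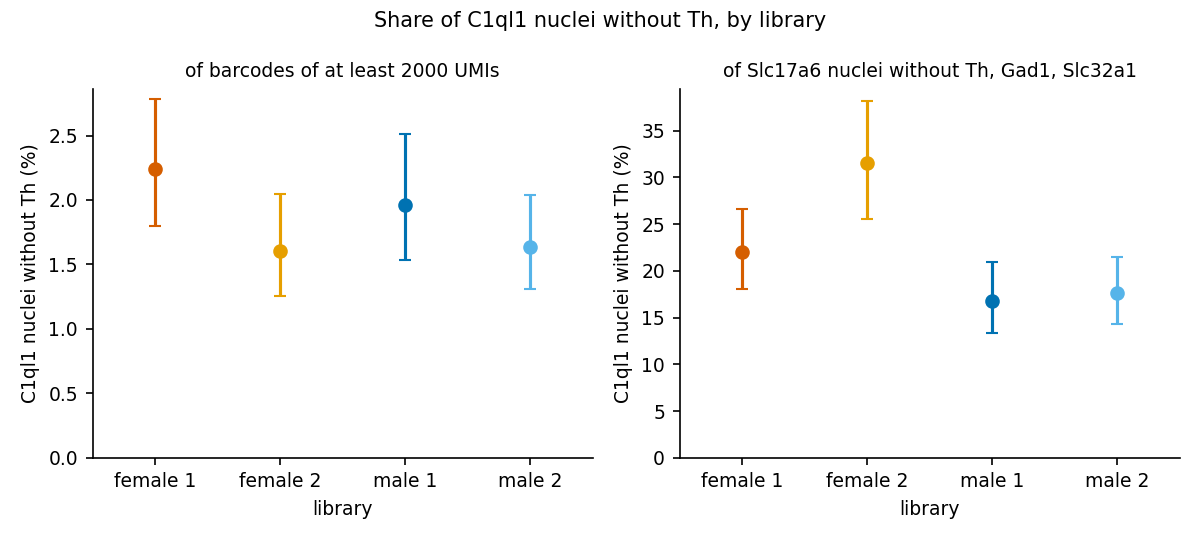
Share of C1ql1 nuclei without Th in each library, as percent of barcodes with at least 2000 UMIs (left) and of Slc17a6 nuclei without Th, Gad1 and Slc32a1 (right), with 95% Wilson intervals. On the left the libraries of both sexes interleave, and on the right both female points lie above both male points.

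Within the C1ql1 nuclei, few genes passed in the test of sex over 2 against 2 libraries. With edgeR 6 of 8715 genes passed (0.0688%), 5 higher in males (0.0574%) and 1 higher in females (0.0115%), and DESeq2 called 5. Without female 2, male 1 or male 2 the counts were 18, 20 and 31. Kdm5d, a Y-linked histone demethylase, stood at 1.60, 0, 130.4 and 113 CPM, with 1 UMI in the females against 163 in the males (log2 difference -6.85 ± 0.53 (SE), edgeR adjusted p = 7.26e-06, female minus male). The Kdm5d difference was -9.25 without female 1, a fitted value that depends on the prior count since female 2 held 0 UMIs, and -6.11 without female 2. Eif2s3y, a Y-linked translation factor, had 0 UMIs in the females and 124 in the males, so it was at least 35.5-fold higher in males against a floor of 3 counts over both female libraries. AC241873.1, Ddx3 and AC239701.4 were the other genes higher in males (the last not without female 1), and AABR07039356.2 was at least 52.7-fold higher in females, at 118 CPM over the pooled female nuclei against 0 UMIs in males. No listed gene of the pathways passed. The nearest, Pnoc, differed by 1.73 ± 0.31 (log2, SE; edgeR adjusted p = 0.0709) and did not pass.

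The difference between C1ql1 and comparison nuclei depended on sex for 3 of 9571 genes (0.0313%) by edgeR's test of the interaction, 1 positive (female minus male, 0.0104%) and 2 negative (0.0209%). Calcr, the calcitonin receptor, stood at 54.4, 17.1, 3.00 and 2.97 CPM in the C1ql1 nuclei and at 5.78, 16.7, 32.1 and 34.0 CPM in the comparison nuclei (interaction, female minus male, 5.35 ± 0.83 SE, edgeR adjusted p = 0.0222). Only 8 of the 280 C1ql1 nuclei held a UMI of it, and 74.5% of its 47 UMIs lay in cluster 4. Mbp, the myelin basic protein gene, and LOC108348175, known by a locus number, gave interactions of -1.37 ± 0.24 and -1.25 ± 0.22 (SE, edgeR adjusted p = 0.0424 and 0.0424). Cluster 12, rich in doublet calls, held 63.4% and 63.8% of their UMIs in the C1ql1 nuclei. None of the 3 passed with doublet calls removed or with DESeq2, and only Calcr, without female 2 (6.63), passed when a library was left out; without female 1, male 1 and male 2 its values were 3.47, 5.38 and 5.28.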

How the data were processed

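Nuclei of the ventral tegmental area were profiled in 4 libraries. The deposited matrices hold UMI counts for 32883 genes, made by the authors with Cell Ranger on rn6 per the submitters' processing notes, and the matrix headers give software version 3.0.2. How barcodes were called as nuclei is not given in the labels or headers. Counts were summed over the nuclei of each set and library, leaving out the 8 gating genes. Sums were tested with edgeR 4.0.16 in R 4.3.3 (filterByExpr, TMM, quasi-likelihood test, library as a block, Benjamini-Hochberg adjusted p under 0.05), and DESeq2 1.42.0 was an alternative. The library pairs both sums of a comparison, since they come from 1 pool, and their deviations correlated (r = 0.100 to 0.319). Sex was tested over 2 against 2 libraries, so p-values measure the spread between pools.

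Doublets were called with Scrublet scores (0.8% per 1000 barcodes) and kept, with their removal as an alternative. Clusters came from scanpy 1.11.5 and leidenalg 0.10.2 (2000 variable genes, 20 components, 15 neighbours, resolution 1). On simulated counts the fit recovered 86% and 98% of log2 changes of 1 and 2 against the comparison nuclei, with 6.12% false calls, 87% and 97% against the matched nuclei (5.64%), 79% and 93% against the Th and C1ql1 nuclei (2.82%) and 65% and 100% for sex (4.62%). The simulation gave all genes the same dispersion and the libraries no difference but depth. It changed only genes of at least 100 UMIs, so these rates need not hold for the real counts. Named genes passed against both the comparison and the matched nuclei, in 4 of 4 libraries, with at least 20 CPM in the higher set, the 10 largest changes each way (5 each way against the Th and C1ql1 nuclei, in that comparison alone; called genes of lowest p for sex and the interaction), beside all listed genes. The nuclei and the gene lists were chosen with earlier results of these data known. Listed genes not found by symbol are not used here, and some called genes are counted in their lists but not reported by name.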

Additional observations from a re-analysis of the deposited data

Results flagged for a closer look

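The differences of the named genes, 20 from the comparison nuclei and 10 from the Th and C1ql1 nuclei, were examined library by library on the log2(CPM + 5) scale, and 1 library stood apart from the other 3 for 3 of them, all against the comparison nuclei. For Shisa6 the differences were 2.54 and 0.84 in the female libraries 1 and 2 and 2.65 and 2.35 in the male ones, and the gap from female 2 to its nearest neighbour was 0.834 of the whole range. For Hmcn1 they were -3.27, -1.27, -3.59 and -3.67, with a gap of 0.835. For Rtn4rl1, a receptor of the Nogo family, they were -2.03, -0.77, -1.99 and -2.14, with a gap of 0.890. These gaps exceed Dixon's 95% critical value for a group of 4, which chance exceeds in about 1 of 20 groups. In all 3 genes it was female 2 whose comparison nuclei lay nearest to the C1ql1 nuclei, and the direction was the same in 4 of 4 libraries. That library had 132 comparison nuclei, the fewest, with 5 of the 90 nuclei of cluster 8, which was led by Hmcn1, and none of the nuclei of clusters 13 and 15. The part of this in its values was not tested.

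For 3 genes the difference between C1ql1 and comparison nuclei was not the same in females and males by edgeR's test of the interaction. It was 5.35 on the log2 scale, female minus male, for Calcr, -1.25 for LOC108348175 and -1.37 for Mbp. None of the 3 passed with DESeq2 or with doublet calls removed.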

How the results depend on the processing

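Against the comparison nuclei the 454 calls became 272 with no library block, 231 with DESeq2, 232 with at least 4 UMIs of Slc17a6, and 282 to 619 with each library left out. Against the matched nuclei 323 became 149 with no block, 127 with DESeq2 and 229 to 331 with each library left out. Against the Th and C1ql1 nuclei 215 became 160 with no block, 81 with DESeq2, 138 with nuclei matched for depth and 135 to 169 with each library left out. In all 3 comparisons the library block is a true pairing, since both sums come from the same pool. The 6 sex calls became 24 with the replicate number as a block, a number that labels give but that marks no shared animal (r = 0.108 between the deviations of same-numbered libraries), 1 with no filter on low counts, and 6 to 31 with each library left out, where the lone library of a sex is assumed to vary like the others. The 3 interaction calls became 0 with DESeq2 (36 genes with an unadjusted p under 0.05, 433 with edgeR), 0 with doublet calls removed (404), 14 with no filter, and 0 to 6 with each library left out. The cause of these moves was not tested. Of 1038 values of 88 genes against the comparison nuclei 905 kept direction and call, 133 lost the call and 0 reversed. Of 886 values of 81 genes against the matched nuclei 700 kept both, 185 lost the call and 1 reversed, Bcas1, an oligodendrocyte gene, at -0.38 with doublet calls removed. Of 569 values of 53 genes against the Th and C1ql1 nuclei 438 kept both and 131 lost the call. The female minus male difference in the share of barcodes, 0.123 percentage points, ran from -0.195 without female 1 to 0.440 without female 2 and was -0.0429 without male 2. The largest share of C1ql1 nuclei in 1 cluster was 21.4%, and at resolutions of 0.5 and 2, settings chosen after seeing the data, it was 29.3% and 13.9%. The C1ql1 nuclei sum to 2492994 UMIs, so for a gene outside the gate 0 UMIs allow up to 1.20 CPM.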

Other observations

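Further genes separated the C1ql1 nuclei without Th from the Th and C1ql1 nuclei. Slc6a11, a GABA transporter, stood at 40.0, 43.6, 61.5 and 57.9 CPM against 10.4, 15.1, 20.4 and 7.31 CPM (log2 difference 1.95 ± 0.35 (SE), edgeR adjusted p = 0.00112). The sets did not overlap, and the call was lost with DESeq2. Sema3d, a secreted guidance cue, was lower, at 38.4, 51.2, 37.5 and 23.8 CPM against 121, 126, 109 and 164 CPM (log2 difference -1.79 ± 0.23 (SE), edgeR adjusted p = 2.3e-05), without overlap.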
